A study of Danio rerio with 6 samples.

Results

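Vascular endothelial growth factor (Vegf) signalling was examined in zebrafish larval hearts through 7 genes, the ligand genes *vegfaa*, *vegfab* and *vegfc* and the receptor genes *kdr*, *kdrl*, *flt1* and *flt4*. They were taken by symbol from a table of 31701 genes, and each symbol matched a single row. Whole hearts had been dissected by hand at 57 to 59 hours post fertilization from mutant larvae, as labelled, and from wild-type (WT) siblings. Each group had 3 biological replicates of 23 pooled hearts, and each pool gave 1 RNA sequencing library. The series title names Wwtr1 (Taz), a transcriptional coactivator of the Hippo pathway; the labels used here give neither the allele nor how mutants were recognised. The values are read counts per gene, scaled between libraries by the authors and rounded, and are called normalised read counts here.

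Vegf ligands are secreted proteins that bind receptor tyrosine kinases on endothelial cells, including the endocardium that lines the heart. Vegfa acts mainly through the Kdr-type receptors, while Flt1 binds Vegfa tightly but signals weakly and is known as a decoy, in part as a soluble form. Vegfc acts through Flt4 and is best known for the growth of veins and lymphatic vessels. Zebrafish carry paralogues of the Vegfa gene (*vegfaa*, *vegfab*) and of the Kdr-type receptor (*kdr*, *kdrl*).

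The genes lie on 6 chromosomes of the GRCz10 assembly. The ligand gene *vegfaa* (ENSDARG00000103542) is on the minus strand of chromosome 16, from 4458253 to 4488590. Its paralogue *vegfab* (ENSDARG00000034700) is on the minus strand of chromosome 4, from 5560118 to 5589254. On chromosome 1, *vegfc* (ENSDARG00000069640) spans 38132757 to 38190124 on the minus strand. The receptor gene *kdr* (ENSDARG00000017321) spans 22321315 to 22377871 of chromosome 20, plus strand. Chromosome 14 holds *kdrl* (ENSDARG00000105215, 32643455 to 32704641) and *flt4* (ENSDARG00000104453, 15511491 to 15651094), both on the minus strand and 17.0 Mb apart. The decoy receptor gene *flt1* (ENSDARG00000019371) is on the minus strand of chromosome 24, from 21605636 to 21663645. Values are per gene, so the soluble and membrane forms of *flt1* were not separated.

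The deposited values summed to between 19187058 and 25227868 per library, and 40.4% to 43.9% of each sum fell on features annotated as ribosomal RNA. Testing covered 18901 genes together, those with 10 or more in 3 or more libraries, and all 7 Vegf genes were among them. As a check of the labels, *wwtr1* stood at 128, 151 and 100 in mutant hearts, against 362, 416 and 471 in WT hearts, with a log2 difference of −1.72 (standard error (SE) 0.155; limma, Benjamini-Hochberg adjusted p = 0.000251). Hatching gland genes, which mark a tissue outside the heart, summed to 1531 to 3383 in mutant libraries and 448 to 2502 in WT libraries. Genes of liver and yolk summed to 9576 to 17531 in mutant libraries and 15396 to 24598 in WT libraries. Unadjusted p from limma was under 0.05 for 4 of 4 tested hatching gland rows (median log2 difference 1.24). It was under 0.05 for 6 of 6 tested liver and yolk genes (median −0.62), against 6.60% of all genes tested. For fast skeletal muscle, cartilage, epidermis and neuron markers it was 0 of 7, 1 of 4, 0 of 6 and 0 of 4. None of these passed the adjustment. The part of such tissue in the results was not tested.

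None of the 7 Vegf genes differed between mutant and WT hearts by the test over all genes. The main receptor genes *kdr* and *kdrl* stood at nearly equal levels in both groups. For *flt1* every mutant pool was above every WT pool, by a margin that did not pass. The ligand genes and *flt4* had larger standard errors (0.171 to 0.365) than these receptor genes (0.0840 to 0.108). Differences in the ligand genes and *flt4*, and not only small ones, could therefore go unseen. On the log2 scale, limma's 95% intervals ran from −0.95 to 0.14 for *vegfaa* and from −0.60 to 0.97 for *vegfc*. They ran from −0.75 to 0.38 for *flt4* and from −0.45 to 0.28 for *vegfab*. At an adjusted p under 0.05, 0 of 7 passed in either direction (limma), against 0.0370% of all genes tested. At an unadjusted p under 0.05 there were also 0 of 7, against 6.60% of all genes. The groups did not overlap for 1 of 7 genes, against 11.1% of all genes tested. The median log2 difference over the 7 was −0.03, with 3 above 0, and over all genes tested it was −0.0029. The plot of values by pool shows each gene.

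**Figure D1:**
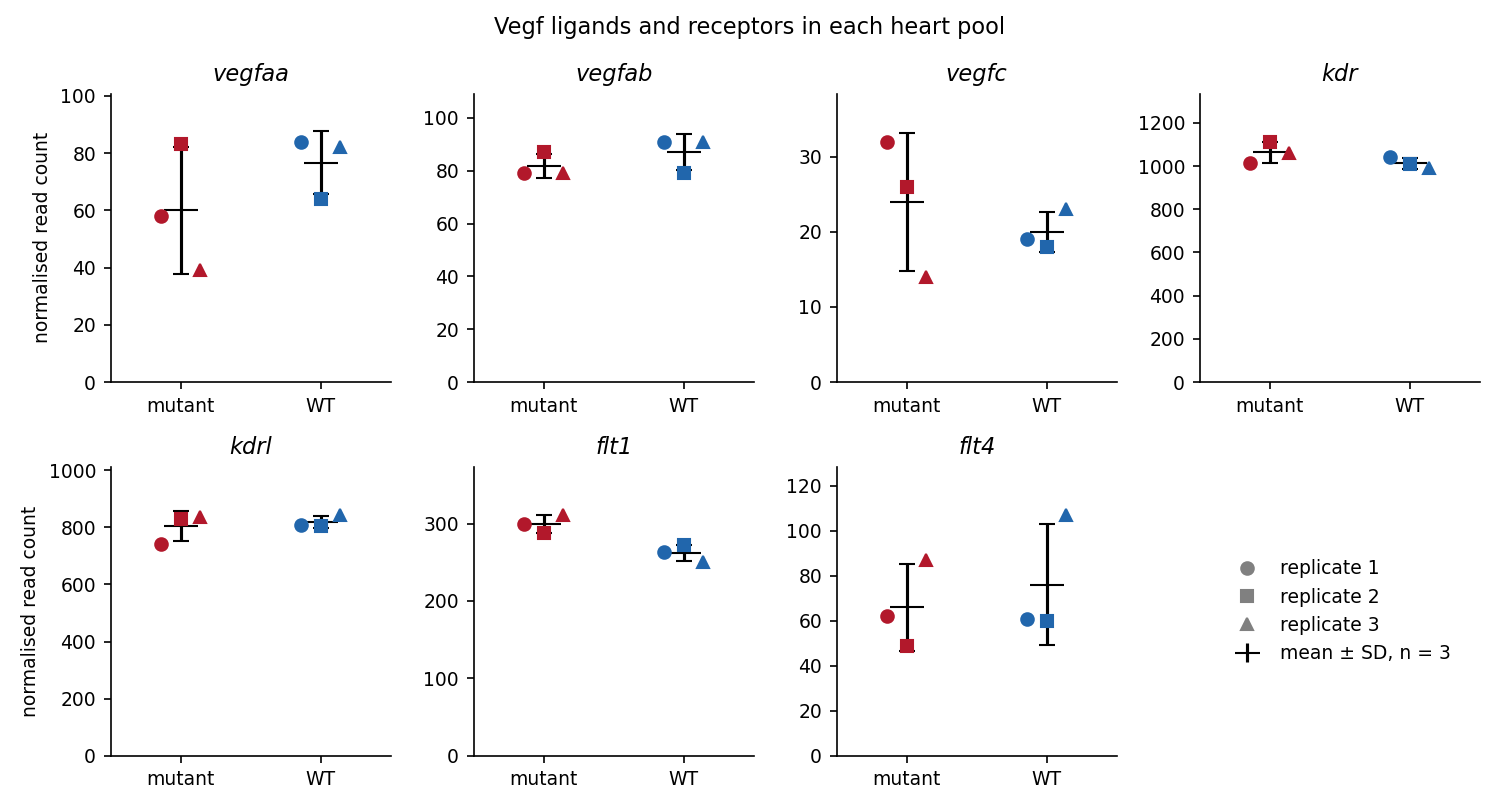
Normalised read count (vertical axes, each starting at 0) of the 3 ligand and 4 receptor genes in 3 mutant and 3 WT heart pools; marker shapes are replicates 1 to 3 and black bars the mean ± SD. Only *flt1* has groups that do not overlap (288 to 311 in mutant, 251 to 272 in WT); *vegfaa*, *vegfc* and *flt4* are spread most within a group.

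Among the ligands, *vegfaa*, the main Vegfa gene of the zebrafish embryo, stood at 58, 83 and 39 in mutant hearts, against 84, 64 and 82 in WT hearts. The lowest values were those of mutant replicates 3 and 1, while mutant replicate 2 lay among the WT pools, so the groups overlapped. The means were 60 ± 22.1 in mutant and 76.7 ± 11.02 in WT hearts (SD, n = 3 each), with a log2 difference of −0.40 with a 95% interval of −0.95 to 0.14 (SE 0.255; limma, adjusted p = 0.852). This was the widest difference among the 7 genes and rested on single pools: it was −0.13 without mutant replicate 3 and −0.67 without mutant replicate 2. The spread within groups, a pooled coefficient of variation (CV) of 25.5%, exceeded both the 12.1% that read counting alone would give at this level and the median of 17.7% over 3838 tested genes of similar mean (within 1.5-fold).

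The paralogue *vegfab* was steadier. It stood at 79, 87 and 79 in mutant hearts, against 91, 79 and 91 in WT hearts, so that 1 WT pool equalled the lowest mutant pools. The means were 81.7 ± 4.62 in mutant and 87 ± 6.93 in WT hearts (SD, n = 3 each), with a log2 difference of −0.09 with a 95% interval of −0.45 to 0.28 (SE 0.171; limma, adjusted p = 0.972). Its pooled CV of 6.98% lay under the 10.9% of counting error and the median of 15.9% for 3827 genes of similar mean. The annotation places *vegfab* inside *apex1*, a DNA repair gene on the opposite strand that is annotated over 330 kb (5325418 to 5655206). That gene stood at 425, 416 and 432 in mutant hearts, against 544, 462 and 581 in WT hearts, lower in every mutant pool (log2 difference −0.31, SE 0.106; limma, adjusted p = 0.563). The sources used here do not say whether counting used strand, so reads of the overlapping genes may be mixed.

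Added together, the reads of both Vegfa paralogues came to 137, 170 and 118 in mutant hearts, against 175, 143 and 173 in WT hearts. The sum in mutant replicate 2 lay among the WT pools, and those of the other mutant pools lay below them. The log2 ratio of *vegfab* to *vegfaa* within a library was 0.50 ± 0.470 in mutant and 0.19 ± 0.0986 in WT hearts (SD, n = 3 each), with mutant pools at 0.44, 0.07 and 1.00 and WT pools at 0.11, 0.30 and 0.15. The mutant pools lay on either side of the WT pools (exact two-sided permutation test, p = 0.4; adjusted p = 0.4 over 3 ratios).

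The ligand gene of the lymphatic branch, *vegfc*, was measured at a depth that leaves little precision. It stood at 32, 26 and 14 in mutant hearts, against 19, 18 and 23 in WT hearts, and the mutant pools gave both the highest and the lowest value. The means were 24 ± 9.17 in mutant and 20 ± 2.65 in WT hearts (SD, n = 3 each), with a log2 difference of 0.18 with a 95% interval of −0.60 to 0.97 (SE 0.365; limma, adjusted p = 0.972). At a mean of 22, counting alone gives a CV of 21.3%, and changes within 0.661-fold to 1.95-fold lie inside the interval. The direction turned without mutant replicate 1 (−0.054). A short gene on the opposite strand, CU915762.1, lies inside *vegfc*, with values of 7 to 12 in mutant and 10 to 14 in WT hearts.

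**Figure D2:**
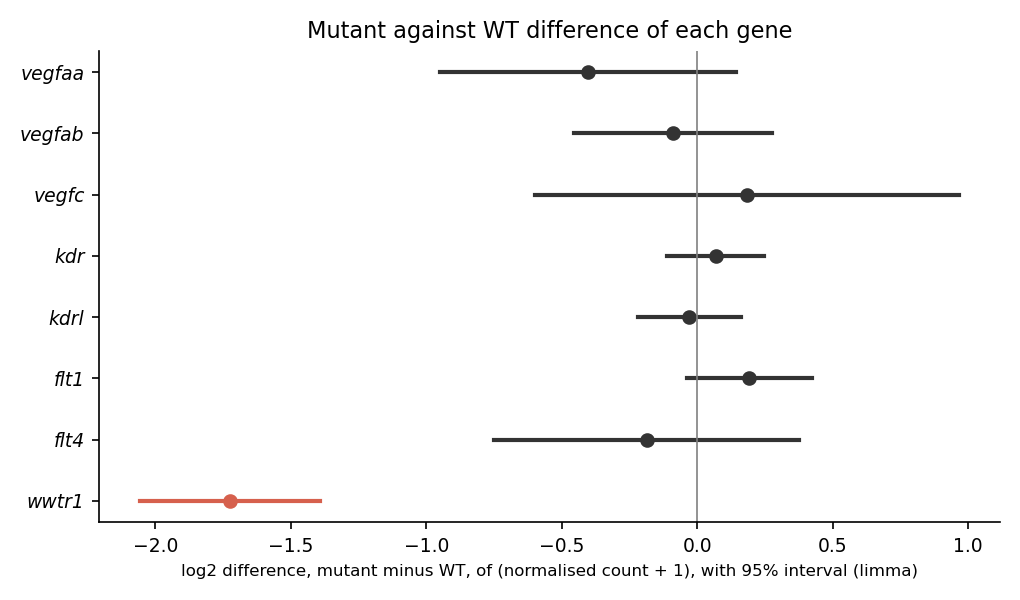
Log2 difference, mutant minus WT (horizontal axis), with its 95% interval from limma for the 7 Vegf genes and, for scale, *wwtr1*. All 7 Vegf intervals cross 0, from the narrow intervals of *kdr* and *kdrl* to the wide one of *vegfc* (−0.60 to 0.97), while that of *wwtr1* lies between −2.06 and −1.39.

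The Kdr-type receptors carry most of the Vegfa signal in endothelial cells, and their genes were measured with the best precision. The gene *kdr* stood at 1013, 1113 and 1062 in mutant hearts, against 1040, 1009 and 989 in WT hearts. Mutant replicates 2 and 3 were above all WT pools, but mutant replicate 1 lay among them. The means were 1063 ± 50.003 in mutant and 1013 ± 25.7 in WT hearts (SD, n = 3 each), with a log2 difference of 0.07 (SE 0.0840; limma, adjusted p = 0.949). The 95% interval ran from −0.11 to 0.25, or 0.926-fold to 1.19-fold.

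Its paralogue *kdrl*, the receptor gene whose promoter is widely used to label zebrafish endothelium, stood at 743, 831 and 838 in mutant hearts, against 808, 806 and 843 in WT hearts. Mutant replicate 1 was the lowest pool, and the other mutant pools fell within the range of WT pools. The means were 804 ± 52.9 in mutant and 819 ± 20.8 in WT hearts (SD, n = 3 each), with a log2 difference of −0.03 (SE 0.0890; limma, adjusted p = 0.981) with a 95% interval of −0.22 to 0.16. Without mutant replicate 1 the sign turned (0.027). The pooled CVs of 3.83% for *kdr* and 4.96% for *kdrl* were near the counting errors of 3.10% and 3.51%, and under the medians of 7.33% and 7.72% for genes of similar mean. Summed, the reads of both genes came to 1756, 1944 and 1900 in mutant hearts, against 1848, 1815 and 1832 in WT hearts.

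The decoy receptor gene *flt1* stood at 299, 288 and 311 in mutant hearts, against 263, 272 and 251 in WT hearts, so every mutant pool was above every WT pool. The means were 299 ± 11.5 in mutant and 262 ± 10.5 in WT hearts (SD, n = 3 each), a ratio of 1.14. The log2 difference was 0.19 with a 95% interval of −0.04 to 0.42 (SE 0.108, unadjusted p = 0.0970; limma, adjusted p = 0.819), and 2239 of the 18901 genes had a lower p. With each pool left out in turn, the difference stayed between 0.16 and 0.22 on the log2 scale and did not pass. Its pooled CV of 3.93% was below the counting error of 5.97% and below the median of 9.77% for 2877 genes of similar mean; limma's SE borrows from such genes and is set by their spread as well. Groups as far apart as to not overlap upward were seen in 5.57% of all genes tested.

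The Vegfc receptor gene *flt4*, known from veins and lymphatic endothelium, stood at 62, 49 and 87 in mutant hearts, against 61, 60 and 107 in WT hearts. Replicate 3 was the highest pool in each group, and the groups overlapped. The means were 66 ± 19.3 in mutant and 76 ± 26.9 in WT hearts (SD, n = 3 each), with a log2 difference of −0.19 with a 95% interval of −0.75 to 0.38 (SE 0.263; limma, adjusted p = 0.954). The direction turned without WT replicate 3 (0.084) or mutant replicate 2 (0.0051). Its pooled CV of 32.9% was the highest of the 7 genes, against 11.9% from counting alone and a median of 17.3% for 3867 genes of similar mean.

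The receptors act on endothelial cells, so their values were set against 19 endocardial and endothelial markers, all of them tested and none at 0. Whether receptor values follow the endothelial share of a heart pool was not tested. In whole hearts, fewer cells of a type and less RNA per cell cannot be told apart. These markers summed to 15275 to 16526 in mutant libraries and 13204 to 15121 in WT libraries. The sums are weighted toward the markers with the highest counts, *cdh5*, *tie1* and *nfatc1*. A log2 difference above 0 was found for 16 of 19, against 49.5% of all genes tested. None of the 19 passed, against 0.0370% of all genes tested, and 4 of 19 had an unadjusted p under 0.05, against 6.60% of all genes. The vascular cadherin gene *cdh5* averaged 5571 ± 384 in mutant and 4492 ± 555 in WT hearts, the receptor gene *tie1* 2183 ± 140 in mutant and 1806 ± 86.9 in WT hearts, and the valve endocardial factor gene *nfatc1* 1224 ± 61.6 in mutant and 990 ± 70.9 in WT hearts (SD, n = 3 each), with adjusted p from limma of 0.496, 0.496 and 0.423. The fourth, the flow-responsive factor gene *klf2a*, had a log2 difference of −0.31 (limma, adjusted p = 0.618). The ETS factor gene *fli1a* averaged 1124 ± 47.5 in mutant and 1062 ± 45.5 in WT hearts.

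Summed levels of markers of other cell types were compared in the same way. None of these markers passed (limma), against 0.0370% of all genes tested. Epicardial markers, from the outer layer of the heart, summed to 520 to 671 in mutant libraries and 681 to 876 in WT libraries, without overlap, and 5 of 5 had a log2 difference below 0. Red blood cell markers summed to 108231 to 187172 in mutant libraries and 115019 to 130037 in WT libraries, with 9 of 10 above 0 and a median log2 difference of 0.32. Macrophage and neutrophil markers summed to 461 to 728 in mutant libraries and 611 to 919 in WT libraries, with 8 of 8 below 0. Cardiomyocyte markers summed to 196480 to 204649 in mutant libraries and 192102 to 223634 in WT libraries, with 5 of 10 above 0. Outflow tract smooth muscle markers summed to 2787 to 3074 in mutant libraries and 3041 to 3275 in WT libraries, with 2 of 5 above 0. Of all genes tested, 49.5% had a log2 difference above 0. Unadjusted p (limma) was under 0.05 for 2 of 5 epicardial and 4 of 10 red blood cell markers. It was under 0.05 for 1 of 8 macrophage and neutrophil, 0 of 10 cardiomyocyte and 1 of 5 smooth muscle markers. The share over all genes tested was 6.60%. No marker of these lists was at 0 in all pools, and the part of these cells in the Vegf values was not tested.

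The mean log2 level of the 19 markers was 8.71, 8.83 and 8.73 in mutant libraries, against 8.71, 8.60 and 8.59 in WT libraries. The groups overlapped through mutant replicate 1 and WT replicate 1. Averaged by group, this marker mean was 8.76 in mutant and 8.64 in WT libraries (exact two-sided permutation test, p = 0.2). Relative to that mean, *kdrl* stood at 0.83, 0.87 and 0.98 log2 units in mutant hearts, against 0.95, 1.05 and 1.13 in WT hearts, a difference of −0.15. Relative *kdr* was 1.28, 1.29 and 1.32 in mutant and 1.31, 1.38 and 1.36 in WT hearts, a difference of −0.05. Both were lower on average in mutant pools, with overlap through mutant replicate 3 and WT replicate 1 (exact two-sided permutation test, p = 0.2 and adjusted p = 0.4 for each, over 4 receptors). Set against *cdh5* alone, the differences widened to −0.34 for *kdrl* and −0.25 for *kdr* (adjusted p = 0.4 for each by the same exact permutation test). The log2 difference of *cdh5* was 0.32, against 0.12 for the marker mean. This change of reference moves all 4 receptors down by the same amount, so the widening is no separate support.

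Relative *flt1* was −0.48, −0.65 and −0.45 in mutant hearts, against −0.67, −0.51 and −0.62 in WT hearts. The groups overlapped and the difference was 0.07 (exact two-sided permutation test, p = 0.4; adjusted p = 0.5). Set against *cdh5* alone, the sign turned (−0.12), through the same shift as for *kdrl* and *kdr*. Relative *flt4* was −2.73, −3.18 and −2.27 in mutant hearts, against −2.76, −2.67 and −1.84 in WT hearts, a difference of −0.31 with overlap (exact two-sided permutation test, p = 0.5; adjusted p = 0.5). It rested on single pools: it was −0.015 without WT replicate 3, −0.081 without mutant replicate 2 and −0.54 without mutant replicate 3, and it was −0.50 against *cdh5* alone. With 3 pools against 3, the smallest p this test can give is 0.1.

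Ratios between receptor genes within a library do not depend on the scaling between libraries. The log2 ratio of *flt1* to *kdrl* was −1.31, −1.53 and −1.43 in mutant hearts, against −1.62, −1.56 and −1.74 in WT hearts, so every mutant pool was higher. The difference was 0.22, and p was 0.1, the smallest that can be reached (exact two-sided permutation test; adjusted p = 0.3 over 3 ratios). Since the values of *flt1* alone already separated the groups, this ratio is no independent support for a difference in *flt1*. The ratio of *flt1* to *kdr* was not computed. The log2 ratio of *kdr* to *kdrl* was 0.45, 0.42 and 0.34 in mutant hearts, against 0.36, 0.32 and 0.23 in WT hearts, a difference of 0.10 with overlap between mutant replicate 3 and WT replicate 1 (exact two-sided permutation test, p = 0.2; adjusted p = 0.3). A ratio also carries the lengths of the transcripts, which were not used here, so only its difference between groups can be read, and levels of different genes were not ranked.

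**Figure D3:**
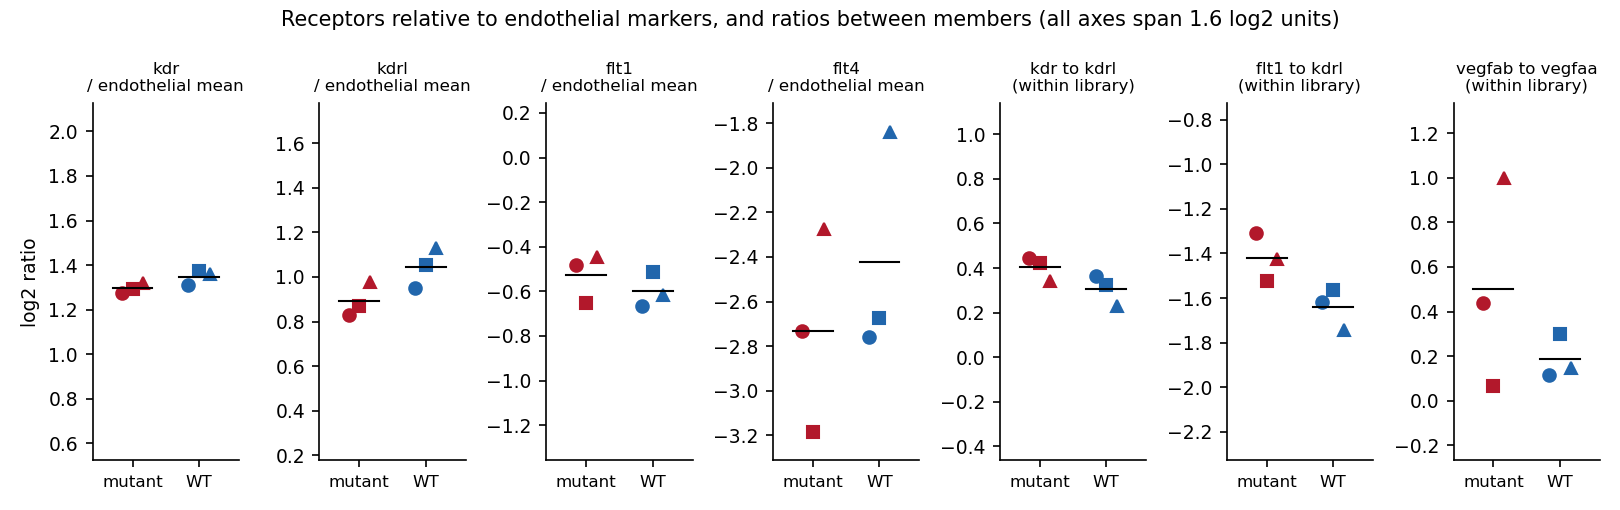
Log2 ratio (vertical axes, all spanning the same range of 1.6 units) of each receptor gene to the mean of 19 endothelial markers, and of gene pairs within a library, in mutant and WT pools; marker shapes are replicates 1 to 3 and lines are means. The ratio of *flt1* to *kdrl* is the panel in which every mutant pool lies above every WT pool, as do the values of *flt1* alone.

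Genes that work with the Vegf ligands and receptors were grouped by role, and none of those tested passed over all genes (limma), as the plot of the pathway by role shows. Of the other ligand genes of the family, only *vegfba* was tested, at 17 ± 4.36 in mutant and 23.3 ± 5.03 in WT hearts (SD, n = 3 each; limma, adjusted p = 0.889). The Vegfd gene, listed as *figf*, stood at 3, 6 and 3 in mutant hearts, against 5, 10 and 13 in WT hearts, below the level for testing. The placental growth factor gene *pgfb* reached no more than 7 in mutant and 8 in WT hearts, and *vegfbb* was listed at 0 in all mutant pools, against 2, 0 and 2 in WT pools.

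Neuropilins are co-receptors that present Vegf to its receptors. Of 5 co-receptor and adaptor genes, 0 passed, against 0.0370% of all genes tested. A log2 difference above 0 was found for 3 of 5, against 49.5% of all genes tested, and the median was 0.08. Every mutant pool was above every WT pool for 1 of 5, against 5.57% of all genes tested. The gene with the highest counts, *nrp1a*, averaged 1869 ± 97.3 in mutant and 1967 ± 212 in WT hearts (SD, n = 3 each), with a log2 difference of −0.07 (SE 0.0940; limma, adjusted p = 0.953). Its paralogue *nrp1b* stood at 516, 588 and 499 in mutant hearts, against 494, 497 and 473 in WT hearts, higher in every mutant pool (log2 difference 0.13; limma, adjusted p = 0.880). Neuropilin 2, the partner of Flt4, is encoded by *nrp2a* (220, 155 and 257 in mutant, against 208, 222 and 311 in WT hearts) and *nrp2b* (498, 524 and 490 in mutant, against 465, 462 and 501 in WT hearts), and both overlapped between groups.

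Secreted Vegfc must be cut by proteases to reach full activity. Of 7 tested genes listed with this step, not all of them proteases, 0 passed, against 0.0370% of all genes tested. Their median log2 difference was 0.12. The convertase gene *furina* averaged 1090 ± 69.5 in mutant and 1001 ± 31.2 in WT hearts, and the protease gene *adamts3* 204 ± 10.1 in mutant and 219 ± 29.0 in WT hearts (SD, n = 3 each). The matrix gene *svep1*, known from zebrafish lymphatic growth, averaged 382 ± 48.1 in mutant and 344 ± 34.7 in WT hearts. The cofactor gene *ccbe1* was at 1, 7 and 6 in mutant hearts, against 4, 7 and 4 in WT hearts, too low to be tested.

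Inside the cell, 0 of 38 tested genes of Vegf signal transduction passed, against 0.0370% of all genes tested, and 0 of 38 had an unadjusted p under 0.05, against 6.60% of all genes. Their median log2 difference was 0.01. The phospholipase gene *plcg1*, which couples the Kdr-type receptors to protein kinase C, averaged 809 ± 59.5 in mutant and 854 ± 54.2 in WT hearts (SD, n = 3 each). The receptor phosphatase gene *ptprb* averaged 791 ± 119 in mutant and 815 ± 87.6 in WT hearts, and the PI3-kinase subunit gene *pik3r1* 757 ± 38.6 in mutant and 737 ± 21.1 in WT hearts. The kinase gene *akt2* averaged 702 ± 33.0 in mutant and 692 ± 50.3 in WT hearts.

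Of 21 tested genes listed as Vegf response genes, 0 passed, against 0.0370% of all genes tested. A log2 difference above 0 was found for 15 of 21, against 49.5% of all genes tested, and the median was 0.04. Their differences ran from −0.998 to 0.83. The widest, −0.998, was that of the homeobox gene *hlx1*, which stood at 23, 29 and 6 in mutant hearts, against 17, 23 and 92 in WT hearts, with overlap (limma, adjusted p = 0.840). The chemokine receptor gene *cxcr4a* stood at 3, 10 and 24 in mutant hearts, against 10, 15 and 20 in WT hearts (log2 difference −0.58; limma, adjusted p = 0.934). Both were low in counts and varied widely between pools of a group. An unadjusted p under 0.05 was found for 3 of 21, against 6.60% of all genes tested. Every mutant pool was above every WT pool in the same 3, against 5.57% of all genes tested. Genes with a low p tend to have separated groups, so the second count adds no support to the first. These 5 genes are named with their values known. The gene *tm4sf18*, a transmembrane protein known from zebrafish to amplify the endothelial response to Vegf, stood at 159, 118 and 101 in mutant hearts, against 65, 59 and 86 in WT hearts. Its log2 difference was 0.83 (95% interval 0.39 to 1.27, unadjusted p = 0.00116; limma, adjusted p = 0.289).

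The immediate early factor gene *egr3* stood at 134, 118 and 112 in mutant hearts, against 100, 87 and 75 in WT hearts (log2 difference 0.48, unadjusted p = 0.0135; limma, adjusted p = 0.586). The netrin receptor gene *unc5b* stood at 931, 909 and 915 in mutant hearts, against 816, 833 and 768 in WT hearts (log2 difference 0.19, unadjusted p = 0.0419; limma, adjusted p = 0.753). The endothelial marker sums given above were also higher in mutant libraries, while the mean log2 levels of those markers overlapped between groups. The part of endothelial cells in these differences was not tested. The response gene with the highest counts, the apelin ligand gene *apln*, averaged 1718 ± 6.66 in mutant and 1693 ± 182 in WT hearts (SD, n = 3 each). The calcineurin inhibitor gene *rcan1a* averaged 915 ± 44.5 in mutant and 832 ± 78.1 in WT hearts, and the Notch ligand gene *dll4* 110 ± 9.54 in mutant and 106 ± 21.2 in WT hearts. The membrane metalloproteinase gene *mmp14b* averaged 481 ± 14.01 in mutant and 470 ± 12.4 in WT hearts.

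Hypoxia-inducible factors switch on Vegfa genes when oxygen is short. Of 14 tested genes of these factors and their regulators, 0 passed, against 0.0370% of all genes tested. Their median log2 difference was −0.03. The shared partner gene *arnt* averaged 2095 ± 245 in mutant and 2043 ± 283 in WT hearts, and the alpha subunit gene *hif1ab* 1162 ± 39.7 in mutant and 1149 ± 43.4 in WT hearts (SD, n = 3 each). The alpha-like gene *hif1al* averaged 1330 ± 96.6 in mutant and 1291 ± 72.5 in WT hearts, and *arnt2* 404 ± 22.3 in mutant and 353 ± 21.96 in WT hearts. An unadjusted p under 0.05 was found for 1 of 14, near the background of 6.60% of all genes tested. The gene, named after its values were seen, was *epas1b*, a Hif2 alpha gene, at 170, 130 and 185 in mutant hearts, against 241, 195 and 221 in WT hearts, lower in every mutant pool (log2 difference −0.45, unadjusted p = 0.0104; limma, adjusted p = 0.563). In the other direction, *arnt2* was higher in every mutant pool. Of the 14 genes, groups were thus apart for 1 upward and 1 downward, and did not overlap for 11.1% of all genes tested.

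**Figure D4:**
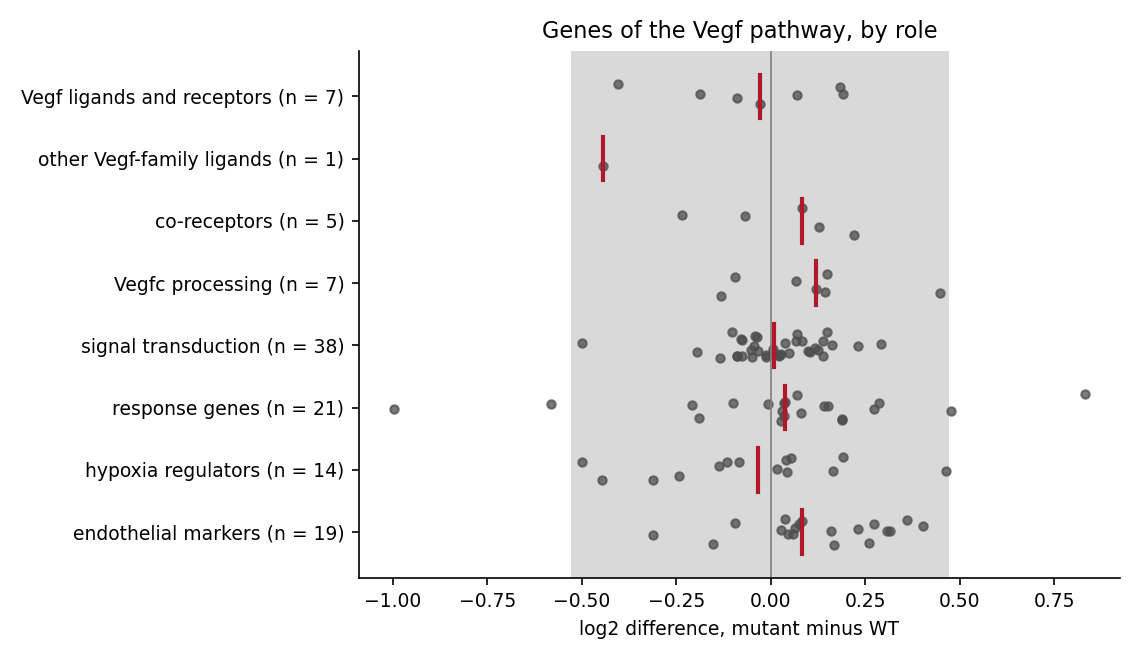
Log2 difference, mutant minus WT (horizontal axis), of every tested gene in 8 groups of Vegf pathway and endothelial genes; each point is a gene, red lines are medians, and the grey band holds the middle 90% of all 18901 genes tested (−0.53 to 0.47). The medians lie between −0.45, for the single other ligand, and 0.12, and no point marks a gene that passed the test.

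Across the 6 pools, no common pattern of the 7 genes was seen. The spreads of *vegfab*, *kdr*, *kdrl* and *flt1* were near or below counting error, and pools were few. These correlations could therefore miss a shared pattern. Of 21 pairs, 0 had an unadjusted p under 0.05 (Pearson's r of log2 values, exact two-sided permutation test; lowest adjusted p = 0.7). The paralogues *vegfaa* and *vegfab* were the most alike, with r = 0.81 (p = 0.0667) and Spearman's rho = 0.83 (p = 0.0667; n = 6, exact permutation test). Without mutant replicates 1 and 3, r was 0.95. Among the pools left, WT replicate 2 stood apart in both genes (64 for *vegfaa*, 79 for *vegfab*), so this value leans on that pool. Pools that were low for *vegfaa* tended to be high for *flt1*, with r = −0.78 (p = 0.0514) and rho = −0.71 (p = 0.136; n = 6, exact permutation test), but r was −0.14 without mutant replicates 1 and 3, so this relation rested on those pools. For *kdr* and *kdrl* r was 0.29 (p = 0.558; n = 6, exact permutation test) and rho 0.03 (p = 1).

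The values of *flt4* were set beside both neuropilin 2 genes and 7 lymphatic and venous markers, a set put together after its values were seen, so the correlations describe these 6 pools. Of the 9 genes, *nrp2a* had the highest r with *flt4*: both were highest in WT replicate 3 and mutant replicate 3 and lowest in mutant replicate 2. Pearson's r was 0.95 (p = 0.00556, adjusted p = 0.05 over 9 relations) and Spearman's rho 0.83 (p = 0.0583, adjusted p = 0.463; n = 6, exact two-sided permutation tests). Without mutant replicate 3 and WT replicate 3, r was 0.98. Among the pools left, mutant replicate 2 stood apart in both genes (49 for *flt4*, 155 for *nrp2a*), so this value leans on that pool. For *nrp2b* r was −0.0035 (p = 0.999; n = 6, exact permutation test). Of all candidate genes with a mean of at least 50, 90 of 10181 had an r of 0.9 or more with *flt4*, and no relation of the 9 had an adjusted p under 0.05.

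Of the 7 lymphatic and venous markers, 3 had an r above 0.7 with *flt4*, and none passed the adjustment. The scavenger receptor gene *stab2* stood at 26, 34 and 78 in mutant hearts, against 33, 47 and 68 in WT hearts, and the mannose receptor gene *mrc1a* at 35, 25 and 91 in mutant hearts, against 18, 16 and 47 in WT hearts. Both were highest in replicate 3 of their group. With *flt4*, r was 0.80 for *stab2* and 0.70 for *mrc1a*, and without the replicate 3 pools it was −0.10 and −0.09. Taken as deviations from the group means, r was 0.79 for *stab2* and 0.98 for *mrc1a*. The hyaluronan receptor gene *lyve1b*, the third, reached no more than 4 in mutant and 9 in WT hearts, and its r of 0.77 became 0.08 without the replicate 3 pools.

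The 4 markers with the highest counts had r values on both sides of 0. The venous factor gene *nr2f2* stood at 320, 241 and 299 in mutant hearts, against 352, 369 and 376 in WT hearts, lower in every mutant pool (log2 difference −0.36, unadjusted p = 0.00976; limma, adjusted p = 0.562), and its r with *flt4* was 0.50, or 0.91 without the replicate 3 pools. The hyaluronan receptor gene *lyve1a* stood at 216, 194 and 223 in mutant hearts, against 213, 235 and 231 in WT hearts, with an r of 0.65, or 0.77 without those pools. For the lymphatic factor gene *prox1a* (600 to 741 in mutant, 612 to 644 in WT hearts) r was −0.40, or −0.99 without them, and for the scavenger receptor gene *stab1* (472 to 512 in mutant, 518 to 611 in WT hearts) −0.20, or 0.23 without them. With 4 pools left, such values are loose descriptions. The marker sums were 1670 to 1805 in mutant and 1857 to 1893 in WT libraries. They are weighted toward *prox1a*, *stab1* and *nr2f2*. Of these, *stab1* and *nr2f2* were lower in every mutant pool, while *prox1a* overlapped between groups. Of 6 tested markers, 2 had a log2 difference above 0, against 49.5% of all genes tested. Every mutant pool was below every WT pool for 2 of 6, and groups did not overlap, in either direction, for 11.1% of all genes tested. An unadjusted p (limma) under 0.05 was found for 1 of 6, against 6.60% of all genes tested. The part of venous or lymphatic tissue in the *flt4* values was not tested.

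**Figure D5:**
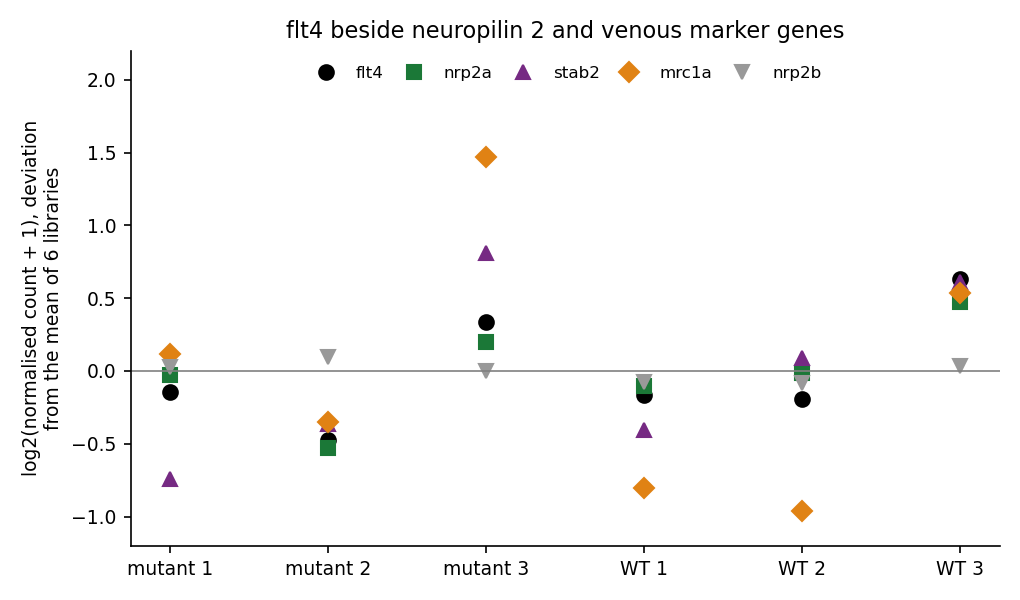
Deviation of log2(normalised read count + 1) from each gene's mean over 6 libraries (vertical axis) for *flt4*, the neuropilin 2 genes *nrp2a* and *nrp2b* and the markers *stab2* and *mrc1a*, by pool. The points of *flt4*, *nrp2a*, *stab2* and *mrc1a* lie above 0 in replicate 3 of both groups and below 0 in mutant replicate 2, while those of *nrp2b* stay near 0. The markers *stab2* and *mrc1a* were chosen from 7 with their values known. Not drawn are *prox1a* and *stab1*, with r of −0.40 and −0.20 to *flt4*, and *nr2f2*, *lyve1a* and *lyve1b* (0.50, 0.65 and 0.77).

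The genes most alike in pattern were sought among the tested genes with a mean of at least 50 and a proper symbol, by Pearson's r of log2 values over the 6 libraries. Since 71 to 98 of about 10181 candidates reached an r of 0.9 with each Vegf gene, the names describe these pools and no more. For the ligands, the nearest were *cul5a* and *pdlim5a* for *vegfaa* (r = 0.988 and 0.985), *polr1d* and *scaf1* for *vegfab* (0.992 and 0.991), and *phf21aa* (0.986) and *phc2a* (0.984) for *vegfc*. For the receptors, they were *mical2a* (0.991) and *anks1b* (0.985) for *kdr*, *rnf34a* (0.990) and *gatad2ab* (0.984) for *kdrl*, *NFATC2* (0.989) and *ctsz* (0.984) for *flt1*, and *hnrnpa1a* (0.986) and *spsb4a* (0.976) for *flt4*. None of these 14 is another Vegf gene, a co-receptor or an endothelial marker of the lists used here. Those lists hold few of the candidates, and *vegfc*, with a mean of 22, was not a candidate, so little can be read from this.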

How the data were processed

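Libraries were made from 6.5 ng of total RNA with the Clontech Pico Input Mammalian kit and read as single reads of 75 nt, per the labels' protocols. The submitters' processing notes name STAR 2.4.0a, featureCounts 1.4.5-p1 and the GRCz10 build; the sources used here do not give counting options. The table holds a score per gene, deposited as read counts scaled between libraries by the authors and rounded: between 1 and 100, 3 libraries lack 5 to 12 whole numbers. Count models were therefore not run. The scale of analysis was log2(value + 1), which understates fold changes of low genes. Mutant and WT libraries were compared with limma 3.58.1 (R 4.3.3, variance trend, Benjamini-Hochberg over 18901 genes). The fit was first run on simulated data that gave every gene the same spread beyond counting. That is a simpler case than these data, so the run does not show how the fit behaves here. Intervals are limma's 95% intervals. Counting errors treat a value as reads, are approximate and cover counting only. The 7 genes and all lists were chosen with earlier results of these data known. Named genes are the 7, *wwtr1*, up to 4 of highest mean per list and the 2 nearest in pattern; *tm4sf18*, *egr3*, *epas1b*, *hlx1*, *cxcr4a*, *klf2a*, *dll4*, *ccbe1*, *apex1*, CU915762.1, *stab2*, *mrc1a*, *lyve1b*, *figf*, *pgfb* and *vegfbb* were added after their values were seen. List names were matched by symbol or through the gene name table. Alternatives were other pseudocounts, filters, scalings, library weights, a replicate block and each library left out.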

Additional observations from a re-analysis of the deposited data

How the results depend on the processing

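Of the 7 Vegf genes, 0 passed under any of 15 alternatives (14 for *vegfc*, which falls below a mean of 50), with adjusted p of 0.7004 or higher. Directions held except where a library was left out: *vegfc* ranged from −0.054 to 0.51, *kdrl* from −0.059 to 0.027 and *flt4* from −0.40 to 0.084, so *vegfc* and *kdrl* turned without mutant replicate 1, *flt4* without mutant replicate 2 (0.0051) or WT replicate 3. Relative *flt1* turned against *cdh5* alone (−0.12), by a shift common to all receptors. The count of all genes past the threshold, 7, went to 70 with ribosomal RNA features left out and the rest set to equal totals and to 15 with the replicate block, and ranged from 5 to 43 with each library left out (43 without WT replicate 2, 11 without WT replicate 1); the cause was not tested. Over all genes tested, deviations from the group means of libraries with the same replicate number correlated at 0.02, −0.02 and −0.02. Such values cannot show whether pools of the same number were prepared together. Under the replicate block no Vegf gene passed. Depth limits *vegfc* most.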
